A study of Mus musculus with 4 samples.

Results

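The 10 genes described here are the transcriptional coactivators of the Hippo pathway, Yap1 and Wwtr1 (which encodes TAZ), their DNA-binding partner Tead1, the pathway components Lats2, Amotl2 and Ajuba, and the target genes Ctgf, Cyr61, Ankrd1 and Axl. They were chosen by gene symbol, with earlier results of these data known, and all 10 were found among the 24411 genes listed for each library. Ctgf and Cyr61 carry these older symbols in the deposited tables and are now named Ccn2 and Ccn1. The values come from 4 libraries for RNA-seq, all made from 4T1, an established cell line from a mouse mammary carcinoma. The 2 controls and the 2 libraries labelled CD95ko were all grown in the same serum-containing medium, and the labels name no further treatment. The CD95ko cells carry lentiviral Cas9 with a blasticidin resistance marker and were transfected with a pair of guide RNAs meant to delete exon 9 of Fas, the gene of the death receptor CD95. Each CD95ko library comes from 1 clone grown from a single sorted cell. The RNA sources in the protocol are a control (Ctr), the line with viral Cas9 (vCas9) and 2 clones, but the titles do not say which control is which, so Cas9 may be present in 1 of the 2 controls. The numbers given to the libraries therefore name different lines or clones, not repeated cultures of the same cells, and the tests measure the spread between these lines.

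YAP and TAZ do not bind DNA themselves. In the nucleus they join TEAD transcription factors and switch on genes of growth, adhesion and the extracellular matrix. The Hippo kinases MST and LATS phosphorylate YAP and TAZ, which are then held in the cytoplasm or degraded, so that their activity is set largely by location and protein stability and not only by transcript level. In mammary tumour cells the pathway is known for its response to cell density, matrix stiffness and the actin cytoskeleton. Several target genes, Lats2 and Amotl2 among them, encode inhibitors of the pathway and form a negative feedback loop. Here Lats2 and Amotl2 are grouped with the pathway components, and the counts of targets below leave them out.

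Values are TPM (transcript abundance scaled to the same total in every library, a length-normalised relative abundance), and sequencing depth is unknown from them. The targeted gene did not follow the labels in both clones: Fas was 49.4 and 39.2 TPM in controls 1 and 2, 15.8 TPM in knockout 1 and 49.5 TPM in the library labelled knockout 2. A value per gene cannot show whether exon 9 is missing, and directions below refer to the libraries as labelled. All 5 markers of the tumour epithelium (Epcam, Krt8, Krt18, Krt19, Cdh1) were detected, with a summed level of 2770 to 2852 TPM in the controls and 4948 to 8560 TPM in the libraries labelled knockout. The part of this shift in the results below was not tested, and in bulk RNA fewer cells expressing a gene and less RNA per cell cannot be told apart. The immune markers Ptprc, Cd3e, Adgre1 and Lyz2 and all 3 endothelial markers (Pecam1, Cdh5, Kdr) were listed at 0 in every library. Of 4 fibroblast markers, Pdgfrb, Dcn and Lum were listed at 0 in every library, and Pdgfra was 0.97 to 2.31 TPM in the controls and 1.47 to 3.53 TPM in the libraries labelled knockout.

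The coactivator transcripts were present at similar or slightly higher levels in the libraries labelled knockout, whereas Tead1 and 3 of the 4 target genes were at 34.6% to 53.0% of their control means. Cyr61, Ankrd1, Axl, Tead1, Amotl2 and Lats2 were lower in both libraries labelled knockout than in both controls. Yap1 and Wwtr1 were higher in both, and the groups overlapped for Ctgf and Ajuba. So 8 of 10 members had groups that did not overlap, where 47.6% of the 11167 tested genes did, with 6 of these members lower and 2 higher, where 18.3% and 29.2% of all tested genes were. None of the 10 passed an adjusted p of 0.05 (limma on log2(TPM + 1), smallest adjusted p = 0.182), and 0.0537% of all tested genes did. An unadjusted limma p under 0.05 was reached by 5 members, all lower (Ankrd1, Axl, Cyr61, Tead1, Amotl2), against 5.68% of all tested genes that reached it in the lower direction. The median difference over the 10 members was -0.70 on the log2(TPM + 1) scale, and over all tested genes it was 0.13. The members were chosen with earlier results of these data known, so the comparisons with all tested genes describe them and are not an independent test. An exact permutation test over 2 libraries against 2 has a smallest possible two-sided p of 0.333, so none is given for single genes.

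**Figure D1:**
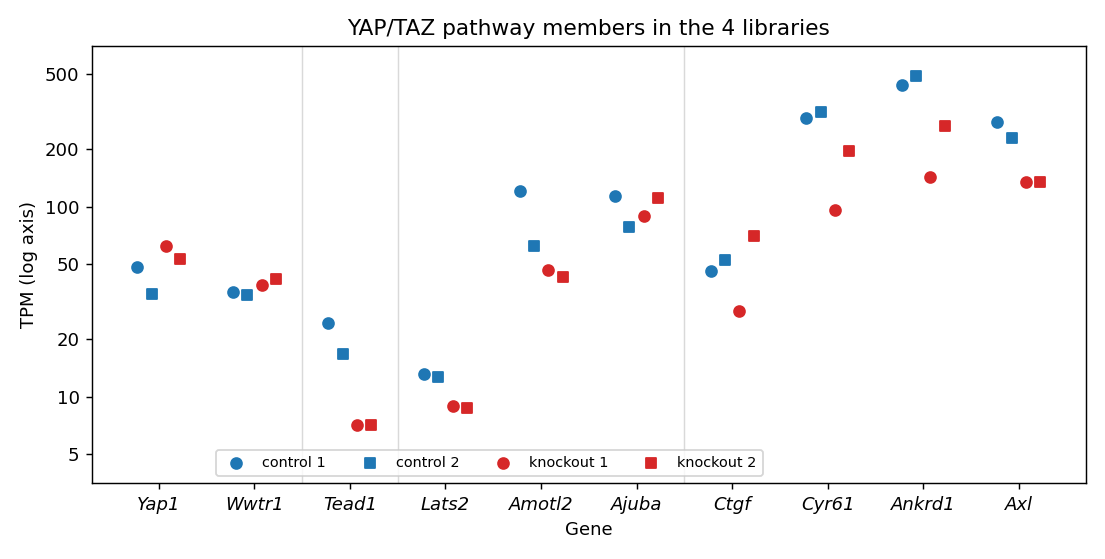
TPM of each member (log axis) in the 4 libraries, 1 point per library, with controls in blue and libraries labelled knockout in red, and with circles for library 1 and squares for library 2 of each group. Both red points lie below both blue points for Tead1, Lats2, Amotl2, Cyr61, Ankrd1 and Axl, and they lie on either side of the blue points for Ctgf.

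Yap1 encodes the coactivator YAP. It was 47.8 and 34.9 TPM in controls 1 and 2, 62.0 TPM in knockout 1 and 53.1 TPM in the library labelled knockout 2. Both libraries labelled knockout lay above both controls, but the gap between 53.1 and 47.8 TPM was smaller than the gap between the controls. The difference was 0.48 ± 0.37 (SE) on the log2(TPM + 1) scale, with a 95% interval from -0.36 to 1.32 (limma adjusted p = 0.576). Wwtr1 encodes TAZ, the paralogue of YAP. It was 35.6 and 34.4 TPM in the controls and 38.6 and 41.7 TPM in the libraries labelled knockout 1 and 2, the smallest ratio of highest to lowest value among the members. Its difference was 0.19 ± 0.37 (SE), with a 95% interval from -0.65 to 1.03 (limma adjusted p = 0.85). Summed, the coactivators stood at 83.4 and 69.3 TPM in the controls and at 101 and 94.8 TPM in the libraries labelled knockout. Both intervals include 0, and they reach a log2 difference of 1.32 for Yap1 and 1.03 for Wwtr1.

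Tead1, one of the 4 TEAD factors through which YAP and TAZ reach DNA, had the largest difference among the members with all 4 libraries, although Ankrd1 and Cyr61 exceeded it without control 1 (-1.31 and -1.19 against -1.13 for Tead1) and without the library labelled knockout 2 (-1.69 and -1.66 against -1.38). It was 24.3 and 16.7 TPM in the controls (20.5 ± 5.35, SD, n = 2) and, in the clones, 7.1 and 7.08 TPM (7.09 ± 0.0141, SD, n = 2). Both clones held about the same amount, below either control, at 34.7% and 34.6% of the control mean. The difference was -1.38 ± 0.49 (SE) on the log2(TPM + 1) scale (95% interval -2.50 to -0.27, limma unadjusted p = 0.0207, adjusted p = 0.251). Among the other TEAD genes, Tead2 was the most abundant, at 75.2 and 59.7 TPM in the controls and 91.1 and 115 TPM in the libraries labelled knockout. Tead3 was 22.3 and 13.6 TPM in the controls and 18.3 and 36.9 TPM in the libraries labelled knockout, and Tead4 was 8.55 and 10.7 against 10.8 and 5.62 TPM. Only for Tead1 and Tead2 did the groups not overlap, in opposite directions, and Tead2 did not pass the test (difference 0.61, limma adjusted p = 0.433). The 4 genes together summed to 130 and 101 TPM in the controls and to 127 and 165 TPM in the libraries labelled knockout. Tead1 made up 18.6% and 16.6% of this sum in the controls, against 5.58% and 4.29% in the clones.

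**Figure D2:**
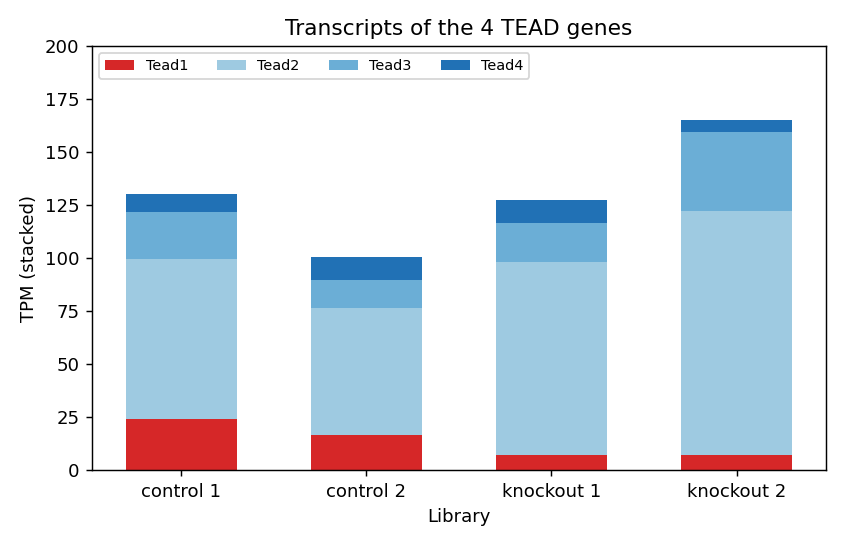
Stacked TPM of Tead1, Tead2, Tead3 and Tead4 in each of the 4 libraries, where the height of a bar is the summed level of the family. Tead1 (red, at the base) takes 16.6% to 18.6% of the bar in the controls and 4.29% to 5.58% in the libraries labelled knockout, while Tead2 is the largest segment in every library.

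The 3 other pathway components among the members act upstream of YAP and TAZ. Lats2 encodes one of the kinases that phosphorylate YAP and TAZ. It was 13.1 and 12.7 TPM in the controls and 8.95 and 8.74 TPM in the libraries labelled knockout. The 2 values of each group were close together and the groups lay apart, at 12.9 ± 0.262 and 8.85 ± 0.148 TPM (SD, n = 2). The moderated test, which borrows its spread from genes of similar level, gave a difference of -0.50 ± 0.49 (SE, limma adjusted p = 0.668). In GENCODE M21, 42.4% of the exonic bases of Lats2 are shared with a second gene model on the same strand, Gm49361, which is not among the genes listed in the tables.

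Amotl2 encodes an angiomotin-family scaffold that binds YAP at cell junctions. It was 120 TPM in control 1, 62.3 TPM in control 2 and 46.6 and 42.8 TPM in the libraries labelled knockout 1 and 2. The controls differed by more (-0.94 for control 2 minus control 1 on the log2 scale) than control 2 did from either clone (-0.41 and -0.53). The difference between the groups was -0.94 ± 0.40 (SE, limma unadjusted p = 0.045, adjusted p = 0.323), and it was -0.47 without control 1 and -1.41 without control 2. Ajuba encodes a LIM-domain protein that restrains LATS kinases. It was 114 and 78.5 TPM in the controls and 88.9 and 111 TPM in the libraries labelled knockout, whose values lay inside the range of the controls. Its difference was 0.07 ± 0.34 (SE), with a 95% interval from -0.71 to 0.85 (limma adjusted p = 0.949), and it was -0.20 without control 2 and -0.09 without the library labelled knockout 2.

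The target genes Ankrd1, Cyr61 and Axl were the 3 most abundant members in every library, and the target Ctgf stood lower, at rank 5 to 8. Ankrd1, which encodes a nuclear and sarcomeric ankyrin-repeat protein and is a common readout of YAP activity, was 437 and 486 TPM in the controls (462 ± 34.3, SD, n = 2). It was 143 TPM in knockout 1 and 267 TPM in the library labelled knockout 2 (205 ± 87.9, SD, n = 2). Both clones lay below both controls, and knockout 1 was the lower of the clones. The difference was -1.24 ± 0.35 (SE) on the log2(TPM + 1) scale (95% interval -2.04 to -0.44, limma unadjusted p = 0.00684, adjusted p = 0.182).

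Cyr61, a secreted matricellular protein that binds integrins, was 293 and 313 TPM in the controls (303 ± 14.0, SD, n = 2), 95.4 TPM in knockout 1 and 196 TPM in the library labelled knockout 2. Its libraries took the same order as those of Ankrd1, with knockout 1 lowest and control 2 highest. The difference was -1.14 ± 0.38 (SE, limma unadjusted p = 0.0148, adjusted p = 0.232). Without the library labelled knockout 2, the 1 that did not show a lower Fas transcript, the differences were -1.69 for Ankrd1 and -1.66 for Cyr61. Without knockout 1 the differences were -0.79 for Ankrd1 and -0.62 for Cyr61. They were -1.31 and -1.19 without control 1, and -1.16 and -1.09 without control 2. A fit with a library left out has 1 residual degree of freedom and assumes that a lone library varies as the other group does. Only the sizes of the differences are therefore given from such fits.

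Axl encodes a receptor tyrosine kinase that binds the ligand Gas6 and is associated with invasive tumour cells. It was 280 and 230 TPM in the controls (255 ± 34.9, SD, n = 2) and, in the clones, 134.8 and 135.3 TPM (135.0 ± 0.311, SD, n = 2). Unlike Ankrd1 and Cyr61, its 2 clones were at the same level, 52.9% and 53.1% of the control mean. The difference was -0.90 ± 0.30 (SE, 95% interval -1.58 to -0.23, limma unadjusted p = 0.0141, adjusted p = 0.227), and it ranged from -1.04 to -0.76 when each library was left out in turn.

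Ctgf encodes connective tissue growth factor, a matricellular protein of the same family as Cyr61 and a widely used YAP/TAZ target. It was 46.0 TPM in control 1, 52.6 TPM in control 2, 28.1 TPM in knockout 1 and 69.9 TPM in the library labelled knockout 2. One clone lay below both controls and the other above both, so the group difference of -0.14 ± 0.47 (SE, limma adjusted p = 0.914) describes neither, and it turned to 0.50 without knockout 1. In GENCODE M21, 23.2% of its exonic bases lie opposite an antisense gene, Gm15270, which is not listed in the tables. The labels do not say whether counting used the strand. The 3 tested genes with the profile nearest to Ctgf over the 4 libraries, by root mean square distance of centred log2(TPM + 1), were Gtf2b (0.056), Bet1l (0.057) and Pet100 (0.061). Gtf2b, for example, was 40.2 and 41.9 TPM in the controls and 24.6 and 60.0 TPM in the libraries labelled knockout. Of the other members Ajuba was the nearest to Ctgf (0.44), with 1335 other tested genes nearer to Ctgf, and Tead1 the farthest (0.81). These distances are a description over 4 libraries, and the 3 genes were picked as the nearest of all tested genes. A small distance does not mean a shared course. Control 2 minus control 1 was -0.53 for Ajuba and 0.19 for Ctgf. The 4 targets summed to 1056 TPM in control 1, 1081 TPM in control 2, 401 TPM in knockout 1 and 668 TPM in the library labelled knockout 2.

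**Figure D3:**
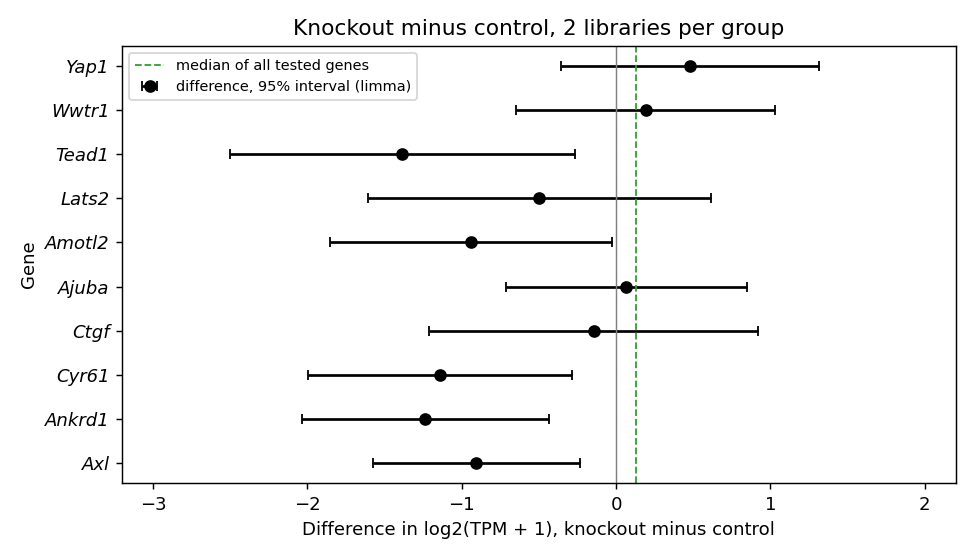
Difference in log2(TPM + 1), knockout minus control, for each member, with the point for the estimate and the bar for its 95% interval from limma (n = 2 libraries per group), and a dashed line at the median of all tested genes (0.13). The intervals of Tead1, Amotl2, Cyr61, Ankrd1 and Axl lie below 0, before any adjustment for the 11167 genes tested.

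In order of level, Ankrd1 was the highest member in every library, ahead of Cyr61 and Axl, which followed at rank 2 or 3. In the controls, Cyr61 (293 and 313 TPM) and Axl (280 and 230 TPM) were neighbours whose values did not overlap, but they exchanged places between the clones, with 95.4 against 135 TPM in knockout 1, then 196 against 135 TPM in the library labelled knockout 2. Ajuba and Amotl2 overlapped in the controls, as did Yap1 and Ctgf. Tead1 and Lats2 were the 2 lowest members in all 4 libraries, with Lats2 last in the controls and Tead1 last in the libraries labelled knockout. Ankrd1 stood at the 97.2 and 97.4 percentiles of all tested genes in the controls and at the 90.7 and 95.1 percentiles in the libraries labelled knockout. Tead1 stood at the 52.4 and 50.8 percentiles in the controls and at the 21.9 and 24.1 percentiles in the libraries labelled knockout.

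The clones differed among themselves on a subset of the targets. On the log2(TPM + 1) scale, the library labelled knockout 2 minus knockout 1 was 1.29 for Ctgf, 1.03 for Cyr61 and 0.90 for Ankrd1, against 0.19, 0.09 and 0.15 for control 2 minus control 1. The same difference between the clones was -0.004 for Tead1, -0.03 for Lats2 and 0.005 for Axl. With 1 library per clone there is no test of these differences. Over all tested genes the median was -0.10 for the library labelled knockout 2 minus knockout 1 and -0.35 for control 2 minus control 1. The SD of the same difference over all tested genes was 1.04 for the clones and 0.66 for the controls, so Ctgf was the 1 member that exceeded it between the clones, and Cyr61 was level with it. Among the controls only Amotl2 (-0.94) exceeded 0.66. These comparisons are made from 0. Counted from the medians instead, Amotl2 lay within the SD of the controls and Cyr61 exceeded that of the clones.

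**Figure D4:**
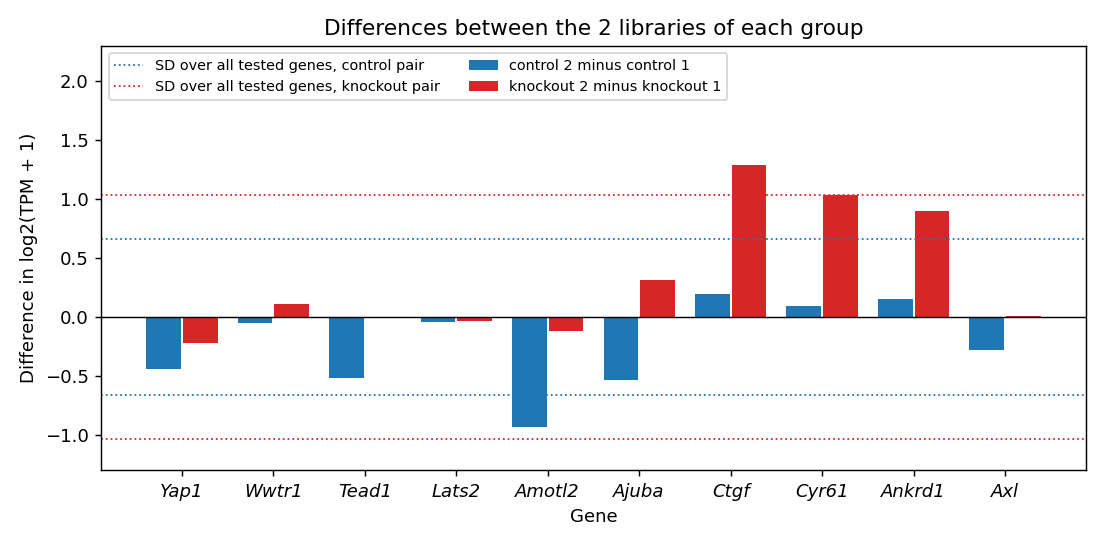
Difference in log2(TPM + 1) between the 2 libraries of each group for every member, control 2 minus control 1 in blue and the library labelled knockout 2 minus knockout 1 in red, with dotted lines at plus and minus the SD of that difference over all tested genes (0.66 and 1.04). The red bars of Ctgf, Cyr61 and Ankrd1 reach 1.29, 1.03 and 0.90, and those of Tead1, Lats2 and Axl are near 0.

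The promoters of the members were searched for the core of the TEAD recognition sequence, GGAATG, or CATTCC when read on the other strand. Promoter windows of 300 bases (250 before to 50 after a RefSeq transcript start, GRCm38.p6) were found for 8 members, and all 8 held the motif in at least 1 window, 9 of 10 windows in all. Of 32851 promoter windows of the same length in RefSeq, 14.7% held it. The windows of Wwtr1 overlap and hold the same match, which is counted in each. The only match of Lats2 begins at base 5 counted from the start, in 1 of its windows, and its other window held none. The motif was present in the targets with lower values (Cyr61, Ankrd1, Axl) and in Yap1, Wwtr1 and Ajuba alike. As all 8 members with a window held it, its presence could not separate them by direction, and Tead1 and Ctgf had no window. A match is a stretch of letters and does not show that a TEAD factor binds there. The AP-1 motif TGANTCA, found in 7.81% of promoter windows, was in none of the members' windows, which says only that these letters are not there. The stretches are shown because they let the windows be compared base by base. Each is read 5′ to 3′ along the strand of its gene, with the motif in capitals.
Cyr61, chr3:145650071-145650100, 103 bases before the start: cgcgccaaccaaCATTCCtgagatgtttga
Ankrd1, chr19:36120037-36120066, 210 bases before the start: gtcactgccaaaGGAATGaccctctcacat
Ankrd1, chr19:36119950-36119979, 123 bases before the start: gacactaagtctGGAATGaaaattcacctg
Axl, chr7:25788949-25788978, 233 bases before the start: ggaaattctacaGGAATGtttaccagaccc
Amotl2, chr9:102717727-102717756, 65 bases before the start: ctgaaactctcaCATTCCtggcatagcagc
Yap1, chr9:8004720-8004749, 141 bases before the start: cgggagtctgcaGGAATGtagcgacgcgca

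Most other tested genes of the pathway had a positive difference, 26 of 35, as 6408 of the 11167 tested genes did. The 4 lists were also chosen with earlier results of these data known, so their shares are descriptions. They covered the kinase cascade, upstream regulators, TEAD partners and other commonly used YAP/TAZ targets. Of their 45 further genes, 35 could be tested. None passed the adjusted threshold (limma, smallest adjusted p = 0.0594), 6 had an unadjusted p under 0.05 (4 higher, 2 lower), where 14.9% of all tested genes did (9.25% higher, 5.68% lower), and the groups did not overlap for 20 (15 higher, 5 lower), where they did not for 47.6% of all tested genes (29.2% higher, 18.3% lower). The median differences were 0.12 for the 10 tested kinase cascade genes, 0.56 for 9 of 12 upstream regulators, 0.11 for 5 of 7 TEAD partners and 0.42 for 11 of 16 other targets, beside 0.13 over all tested genes. Under quantile normalisation, which moved the median of all tested genes from 0.13 to 0.002, the medians of the kinase cascade and of the TEAD partners were -0.06 and -0.11. When each library was left out in turn, the median ran from -0.27 (without knockout 1) to 0.42 for the kinase cascade, where it was also negative without control 2 (-0.05). For the upstream regulators it ran from 0.22 (without control 2) to 0.88 (without control 1). For the TEAD partners it ran from 0.08 (without knockout 1) to 0.44 (without control 1, where 4 of the 5 genes passed the filter). For the other targets it ran from 0.14 (without control 2) to 0.81 (without control 1). The median of all tested genes moved as well, to 0.31 without control 1 and -0.05 without control 2. It was 0.10 without knockout 1 and 0.19 without the library labelled knockout 2.

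Among the upstream regulators, Nf2 encodes Merlin, a membrane-associated activator of the Hippo kinases. It was 38.4 TPM in control 1, 15.7 TPM in control 2, 71.3 TPM in knockout 1 and 214 TPM in the library labelled knockout 2 (difference 2.28 ± 0.59 SE, limma adjusted p = 0.158). Both clones lay above both controls, and the clones lay further apart than the controls. The angiomotins Amotl1 and Amot, relatives of Amotl2, were also higher in both clones, in the opposite direction to Amotl2. Amotl1 was 72.4 and 54.7 TPM in the controls and 151 and 181 TPM in the libraries labelled knockout (difference 1.38, limma adjusted p = 0.145), and Amot was 1.67 and 2.02 against 7.07 and 6.01 TPM (difference 1.41, limma adjusted p = 0.316). When each library was left out in turn, the difference of Nf2 ran from 1.49 to 3.07 and that of Amotl1 from 1.18 to 1.58. Such fits leave 1 library in a group, so no call is given from them.

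Rassf1, a scaffold that binds the MST kinases, was 242 and 230 TPM in the controls and 57.4 and 51.0 TPM in the libraries labelled knockout, with both groups tight and far apart. Its difference of -2.11 ± 0.31 (SE) had the smallest p of the pathway lists (limma adjusted p = 0.0594), and its call depended on the setting. With 4 libraries it passed with robust variance moderation (limma adjusted p = 0.0258). That setting called 52 of the 11167 tested genes, against 6 in the main fit. Rassf1 passed in none of the other 5 alternatives (limma adjusted p from 0.131 to 0.179). When each library was left out in turn, its difference ran from -2.19 to -2.02. An antisense gene, Gm9917, covers 42.7% of its exonic bases and is not listed in the tables, so its value is uncertain. In the kinase cascade, Mob1a, a cofactor of LATS, was 12.9 and 9.72 TPM in the controls and 32.0 and 22.3 TPM in the libraries labelled knockout (difference 1.18, limma adjusted p = 0.281). Vgll3, a cofactor of TEAD factors, was 5 and 7.06 TPM in the controls and 0.95 and 0.99 TPM in the libraries labelled knockout. Vgll3 passed the filter on low values through its control values alone, so no test is given for it. It is 1 of the 2 lower genes with an unadjusted p under 0.05 in the count above. It is also 1 of the 5 lower genes whose groups did not overlap, and it enters the median of the TEAD partners. The shares over all tested genes hold genes that passed the filter in this way too.

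Of the 11 tested among the 16 other targets, 0 had an unadjusted limma p under 0.05, where 14.9% of all tested genes did. Their values went both ways. Gadd45a, a stress-response gene, was 482 and 526 TPM in the controls and 195 and 404 TPM in the libraries labelled knockout. Its difference was -0.84 (limma adjusted p = 0.336), and it was -1.37 without the library labelled knockout 2. Dock5, a guanine nucleotide exchange factor for Rac, was 14.6 and 11.5 against 24.8 and 26.6 TPM (difference 0.93, limma adjusted p = 0.366). These 2 were singled out after their values were seen, as the extremes of the list. In this list 9 of 11 tested genes had a positive difference, and 7 of 11 did without control 2. Igfbp3, Foxf2 and Ccdc80 were listed at 0 in every library.

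**Figure D5:**
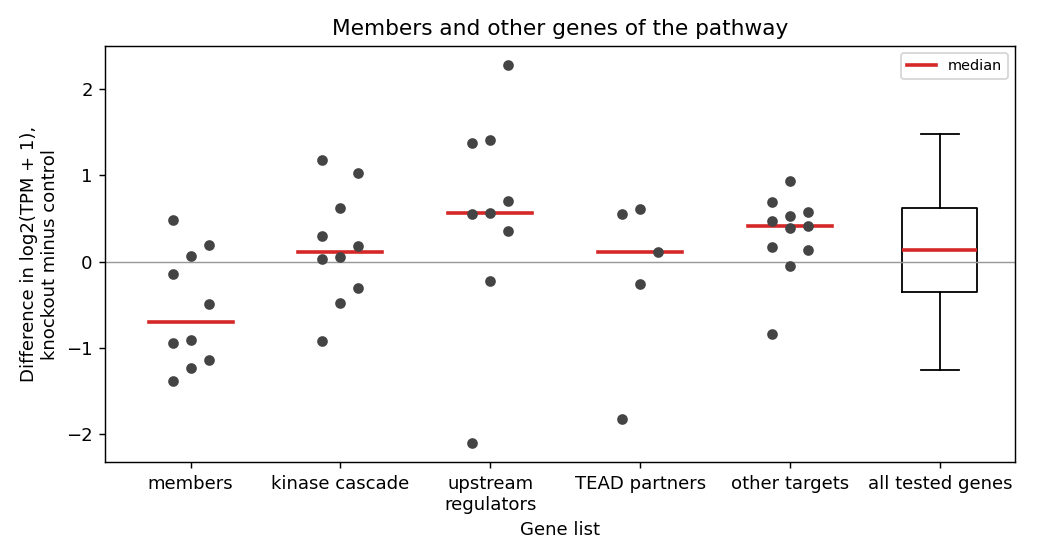
Difference in log2(TPM + 1), knockout minus control, for each tested gene (points) of the members and of the 4 pathway lists, with red lines at the medians, beside a box of all 11167 tested genes (box from the 25 to the 75 percentile, whiskers from the 5 to the 95 percentile). The members' median is -0.70, those of the lists lie between 0.11 and 0.56, and the box has its median at 0.13.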

How the data were processed

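Each of the 4 libraries has 1 table deposited by the authors that pairs gene symbols with TPM, per the file headers. STAR 2.6.0, RSEM 1.3.0 and the build mm10 are named in the submitters' processing notes, and the annotation is not given in the sources used here. Per the labels' protocols, oligo(dT)-selected RNA was fragmented, tailed, reverse transcribed with template switching and amplified by PCR, with no mention of molecular identifiers. TPM is relative to each library's total and carries no read number, so no counting interval or count-based test was used.

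Genes with at least 1 TPM in at least 2 libraries were tested (11167 genes). Values were taken as log2(TPM + 1), which understates differences of weakly expressed genes, and limma 3.58.1 (R 4.3.3) gave the comparison (two-sided, moderated with a mean-variance trend in eBayes, Benjamini-Hochberg adjustment over all tested genes, threshold 0.05). The procedure was tested on simulated data. The members and lists were chosen with earlier results of these data known. The text names all 10 members, Fas, the 3 tested genes nearest to Ctgf and, from each pathway list, genes past the threshold or otherwise up to 4 with an unadjusted p under 0.05 and groups that did not overlap. Gadd45a, Dock5, the other TEAD genes and the targets listed at 0 fall outside this rule and were named after their values were seen. Positions and exon overlaps come from GENCODE M21 and promoter sequences from RefSeq (GRCm38.p6). Ctgf and Tead1 had no entry in the promoter table. Alternatives were a pseudocount of 0.1, no filter, quantile normalisation, the replicate number as a block, eBayes without trend, robust eBayes and leaving out each library. One cell type marker is not reported here.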

Additional observations from a re-analysis of the deposited data

How the results depend on the processing

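No member passed the adjusted threshold in the 6 alternatives that used all 4 libraries (0 members each, smallest limma adjusted p from 0.143 to 0.286), with 2 to 5 members at an unadjusted p under 0.05, the 2 being without the variance trend. Fits with a library left out leave 1 library in a group, so only their differences are given. The median difference over the members was between -0.81 and -0.70 with 4 libraries. With a library left out it was between -0.83 (without the library labelled knockout 2) and -0.48 (without control 1). The median of all tested genes in these fits was 0.19 and 0.31, in that order. Among the 10 members and Fas, differences kept their sign in every alternative except when a library was left out for Ajuba (-0.20 to 0.33, negative at -0.20 without control 2 and -0.09 without the library labelled knockout 2), Ctgf (-0.79 to 0.50, positive at 0.50 without knockout 1) and Fas (-1.42 to 0.16, positive at 0.16 without knockout 1). The causes were not tested. The replicate numbers name different lines and do not pair the libraries (correlation of the deviations of control 1 and knockout 1 over genes, -0.081). A fit with the number as a replicate block gave 0 members past the threshold and a median difference of -0.70, and no member's call changed. Depth is unknown, so the reach of a library for genes listed at 0 cannot be given.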
